A study of Mus musculus with 24 samples.

Results

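The genes described here encode the enzymes that make and use glutathione and that remove peroxides and superoxide in the mouse adrenal gland. They were taken by gene name on the array: glutathione S-transferases (Gsta, Gstm, Gstp, Gstt, Gsto, Gstk, Gstz and the microsomal Mgst), glutathione peroxidases (Gpx), peroxiredoxins (Prdx), thioredoxin reductases (Txnrd), and the single genes Gclc, Gclm, Gsr, Gss, Sod1, Sod2, Sod3, Cat, Hmox1, Hmox2, Nqo1, Txn1 and Txn2. The array holds 57 such names on 79 probes, and 54 of them passed, which needed a probe that the scanner software found well above background on 3 or more of 24 arrays, out of 31018 features measured in all. A gene is represented by its brightest probe, and 51 of the 54 were above background on every array. Gsta1 was above background on 15 arrays, Gsta2 on 19 and Gstt4 on 10. Gpx5 and Gpx6 were above background on no more than 2 arrays and are not described further.

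RNA of adrenal glands from C57BL/6 mice was hybridized to one-colour arrays, 3 for each of 8 groups. The groups are castrated Kcnk3 null males, castrated WT males, sham null males, sham WT males, testosterone-treated null females, testosterone-treated WT females, sham null females and sham WT females. Kcnk3 encodes the background potassium channel TASK1, and how the null allele was made is not given in the labels. Ages, the time after surgery and the testosterone dose are not given in the sources used here, nor whether a sample is 1 animal or a pool, so p-values measure the spread between these samples, which may be technical. The levels below are relative signals, which means the background-subtracted signal divided by the 75th percentile of the same array. They compare arrays for 1 probe and cannot be compared between probes. Differences are log2 values, given ± 1 standard error (SE) from a limma model of the 8 group means, and a gene is called when its p-value, adjusted by Benjamini-Hochberg over all 31018 features, is under 0.05.

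Several arrays go against their labels or hold other tissue, and these limit every result. At least 10% of the signal of sex-linked genes of the opposite sex was found on 9 arrays, namely sham null male arrays 1 and 2, castrated null male arrays 1 and 2, sham WT female arrays 2 and 3 and all 3 testosterone WT female arrays. Comparisons of groups are therefore comparisons of libraries labelled in that way. Castration in WT males and testosterone in null females are the pairs that hold none of the 9 arrays, and each of the 4 comparisons of genotype holds 2 or 3 of them. Sham WT male array 3 and testosterone null female array 1 carried liver transcripts, with summed levels of 906 and 1461 for 10 liver markers against at most 23.4 on the other arrays. RNA integrity numbers ran from 3 to 9, with both values of 3 in the third WT female arrays, the only arrays of the fourth slide. Kcnk3 read 5.63% to 69.0% of the WT sham level of the same labelled sex on null arrays and 66.5% to 118% on WT arrays. All 10 markers of steroid-producing cells were measured, with summed levels between 1402 and 2622.

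Glutathione is a tripeptide made from glutamate, cysteine and glycine by glutamate-cysteine ligase (Gclc and its modifier Gclm) and glutathione synthetase (Gss), and its oxidized form is reduced again by Gsr. Glutathione S-transferases attach it to reactive molecules, glutathione peroxidases and peroxiredoxins use thiols to reduce peroxides, and thioredoxin with its reductases keeps peroxiredoxins active. In the adrenal cortex the mitochondrial and microsomal cytochromes P450 that make steroids leak electrons to oxygen, so these enzymes are abundant there. In mice the gland also has an X-zone, an inner cortical layer that regresses under androgens in males and persists longer in females.

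Prdx6 and Prdx6-ps2 are both called below, so the most alike of their probe sequences are shown first. Prdx6-ps2 is named as a pseudogene of Prdx6, and its probe is placed on another chromosome. That probe had no match in RefSeq, and the later annotation of the array gives it another name, so its identity is not settled. It resembles 1 of the 4 Prdx6 probes. Of 54 bases aligned without a gap, 42 were identical, and the 12 that differ are in capitals. Both are probe sequences from the array files, 5′ to 3′, with positions on mm9.
Prdx6-ps2, chr4:25235488-25235547, plus strand: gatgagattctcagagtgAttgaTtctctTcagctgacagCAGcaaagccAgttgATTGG
Prdx6, chr1:163173715-163173774, minus strand: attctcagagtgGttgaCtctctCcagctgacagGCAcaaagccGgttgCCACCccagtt
The Prdx6 probe printed is not the brightest, whose levels and fits are given below. The brightest matched the Prdx6-ps2 probe at 22 of 58 bases, and the other Prdx6 probe that was called on its own at 21 of 44. Both lie in other stretches of Prdx6 than the printed probe, so these matches cannot tell which transcripts they bind. Whether transcripts of one gene bind the probe of the other was not tested, so Prdx6 and Prdx6-ps2 are counted below as separate names that may share signal. Gstm1 has the same kind of doubt, since its brightest probe is placed on chromosome 5 (117082490 to 117082549, mm9) and its second probe on chromosome 3 (107815595 to 107815654), where the other mu-class genes lie. The probe named Prdxdd1 belongs to a gene that RefSeq now calls Prorsd1, which is no peroxiredoxin.

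The antioxidant response element is the DNA site through which the factor Nrf2 activates many genes of this kind. Its core was searched as TGACNNNGC on both strands of RefSeq promoter windows (GRCm38.p6) that run from 250 bases before to 50 after a start site. Windows were found for 46 of the members, and 8 of the 46 genes (17.4%) held the core, against 13.99% of all 27025 genes with a window. None of the 8 called members that have a window held it, which says only that these letters are not in this stretch. The full palindromic androgen response element was in the window of no member and of 3 genes in all. Sites in Gclm, Prdx1 and Txnrd1, textbook targets of Nrf2, and in Gsta3, which had the greatest fitted genotype difference among the members above background everywhere, are printed with 15 bases on each side and the core in capitals, 5′ to 3′ on the strand of the gene. In Gclm, Prdx1 and Txnrd1 the core lies on the opposite strand, so the capitals there are its reverse complement, and in Gsta3 it lies on the strand of the gene.
Gclm, chr3:122245408-122245446, plus strand: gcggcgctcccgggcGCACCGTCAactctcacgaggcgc
Prdx1, chr4:116685451-116685489, plus strand: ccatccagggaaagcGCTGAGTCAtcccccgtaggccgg
Txnrd1, chr10:82859099-82859137, plus strand: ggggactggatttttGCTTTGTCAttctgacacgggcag
Gsta3, chr1:21240449-21240487, plus strand: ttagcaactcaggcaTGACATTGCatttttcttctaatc

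The genes of glutathione synthesis and recycling were called in none of the 15 comparisons. Gclc, the catalytic subunit, ran from 2.98 to 5.08 over the 24 arrays, its modifier Gclm from 0.618 to 1.16, Gss from 1.96 to 3.57 and Gsr from 5.79 to 8.77. Each varied less than 2-fold between its lowest and highest array. The lowest adjusted p among them in an average belonged to Gss, which differed by -0.21 ± 0.09 (SE) between androgen-high and androgen-low glands (adjusted p = 0.327). In females the difference of testosterone responses between null and WT was 0.62 ± 0.22 for Gclc and did not pass (adjusted p = 0.879).

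The question whether androgens act on these genes is addressed by castration in males and testosterone in females. The average over sex and genotype sets the 12 androgen-high arrays (sham males and testosterone females) against the 12 androgen-low arrays (castrated males and sham females). It called 8 of the 54 members, 3 higher and 5 lower, where 2.81% of all features were called, 1.11% higher and 1.70% lower. Before adjustment, p was under 0.05 for 22 members (40.7%), against 12.1% of all features. Hmox1, Gstm1 and Gstm3 were higher in androgen-high glands. Gstk1, Prdx6, Prdx6-ps2, Sod3 and Gsta1 were lower there.

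Hmox1 encodes the inducible heme oxygenase, which opens heme to biliverdin, iron and carbon monoxide. Its level was 14.2, 10.5 and 8.81 in sham null males, against 5.64, 6.06 and 4.26 in castrated null males. It was 15.6, 16.1 and 8.69 in sham WT males, against 5.08, 6.06 and 4.96 in castrated WT males. In both genotypes every sham male lay above every castrated male. Testosterone null females had 4.92, 8.57 and 8.01, against 6.72, 5.68 and 5.92 in sham null females, and these groups overlap. Testosterone WT females had 9.98, 8.90 and 10.3, against 6.66, 4.73 and 7.95 in sham WT females, with no overlap. The average difference was 0.79 ± 0.13 (adjusted p = 0.00144) and kept its call in all 36 alternatives that could give it, with values from 0.73 to 0.92. Neither this nor any other average could be refitted without the 9 arrays with opposite-sex signal, which include all testosterone WT females.

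The pair of WT males was the only castration or testosterone comparison with a called member. Castrated minus sham, Hmox1 changed by -1.28 ± 0.26 (adjusted p = 0.0253), as 1 called member of 54 where 0.600% of all features were called. The values within slides 1, 2 and 3 were -1.62, -1.41 and -0.81, and sham array 3, the lowest of its group, is the array with liver transcripts. Without that array the difference was -1.57 (adjusted p = 0.00854). Leaving out any of the other 5 arrays ended the call, with adjusted p between 0.0600 and 0.177, and so did averaging both Hmox1 probes (-1.21, adjusted p = 0.153). No array of this pair is among the 9, but leaving the 9 out of the fit raised the adjusted p to 0.111 with the same difference. In null males Hmox1 differed by -1.06 ± 0.26 and narrowly missed the threshold (adjusted p = 0.0637). It passed there under 7 alternatives, with adjusted p from 0.0119 to 0.0464. Among the members that did not pass in WT males, Gstk1 differed by 0.84 ± 0.23 (adjusted p = 0.151) and Gstm1 by -0.47 ± 0.14 (adjusted p = 0.217), and Gsta1 had adjusted p = 0.161. Macrophages also express Hmox1, and the summed level of 9 measured macrophage markers was 26.4 to 28.0 in castrated WT males and 26.6 to 29.0 in sham WT males. The 8 measured red blood cell markers summed to 85.2 to 143 in castrated WT males and 256 to 863 in sham WT males, and their part in the result was not tested.

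Gstk1 is the kappa-class transferase of mitochondria and peroxisomes and moved the other way. Its level was 31.4, 34.4 and 22.2 in sham null males, against 26.4, 38.8 and 30.2 in castrated null males, and these overlap. Sham WT males had 19.03, 17.8 and 21.3, against 39.7, 34.4 and 30.5 in castrated WT males. Testosterone null females had 22.4, 22.2 and 25.5, against 28.9, 37.8 and 44.5 in sham null females. Testosterone WT females had 26.0, 22.9 and 22.2, against 57.4, 51.6 and 30.5 in sham WT females. All but the null males separated completely. The average difference was -0.63 ± 0.11 (adjusted p = 0.00306) and was called in all 36 alternatives. Within slides 1 to 4 it was -0.58, -0.77, -0.59 and -0.46.

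Prdx6, a peroxiredoxin with a single active cysteine that also has phospholipase activity, fell in androgen-high glands as well. It ran from 50.8 over a median of 60.9 to 74.1 in the 12 androgen-high arrays and from 57.3 over a median of 82.9 to 111 in the 12 androgen-low arrays. The average difference was -0.43 ± 0.08 (adjusted p = 0.00520), and it was below 0 in each of the 4 pairs. Its 4 probes all fell, by 0.27 to 0.43, of which 2 passed on their own, and the mean of the 4 did not pass (-0.35, adjusted p = 0.0719). Prdx6-ps2 differed by -0.35 ± 0.08 (adjusted p = 0.0277), with a size of 0.0056 in castrated minus sham null males. Its call was lost in 12 of 36 alternatives, among them 9 of the 24 that leave out 1 array.

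Sod3, the secreted superoxide dismutase of the extracellular matrix, ran from 46.6 over 75.7 to 89.9 in androgen-high arrays and from 70.5 over 99.5 to 108 in androgen-low arrays. The difference was -0.40 ± 0.09 (adjusted p = 0.0225) and became -0.32 (adjusted p = 0.0523) without both liver-containing arrays. Testosterone null females stood lowest, at 46.6, 73.4 and 54.1, against 85.8, 95.3 and 101 in sham null females, a difference of -0.72 ± 0.19 that did not pass in that pair (adjusted p = 0.188). The value of 46.6 comes from an array with liver transcripts. The other superoxide dismutases and catalase were not called. Sod1 of the cytosol differed by 0.05, Sod2 of mitochondria by 0.18 and Cat by 0.06 in the average.

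Mu-class transferases, a cluster of cytosolic detoxification enzymes, rose with androgen state in 2 of 7 cases. Gstm1 ran from 27.1 over 38.5 to 44.9 in androgen-high arrays and from 25.5 over 29.7 to 34.6 in androgen-low arrays, a difference of 0.30 ± 0.07 (adjusted p = 0.0193). Testosterone WT females, whose 3 arrays all carry Y-linked signal, overlapped their sham group, with 28.4, 27.1 and 28.1, against 25.5, 33.2 and 28.1 in sham WT females. Gstm3 ran from 5.10 over 7.16 to 7.74 in androgen-high arrays and from 3.66 over 5.00 to 6.14 in androgen-low arrays. Its difference of 0.40 ± 0.10 (adjusted p = 0.0315) was above 0 in all 4 pairs, but its call was lost when any of 12 of the 24 arrays was left out. The size depends on the probe, since the second Gstm3 probe gave 1.41 ± 0.46 (adjusted p = 0.132 over all probes) and the mean of both 0.91 (adjusted p = 0.0518). The second Gstm1 probe gave 0.34 ± 0.10 (adjusted p = 0.0736 over all probes). Gstm5 differed by 0.22 ± 0.07 (adjusted p = 0.0839), and Gstm4 by 0.31 ± 0.14 (adjusted p = 0.361). Fitted differences of all 7 mu-class genes were above 0.

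Gsta1, an alpha-class enzyme, was near background in androgen-high males. It was well above background on none of the 3 sham null male arrays and 1 of the 3 sham WT male arrays, against all 3 arrays in each castrated group. Levels were 0.0846, 0.0352 and 0.114 in castrated null males, against 0.0138, 0.00915 and 0.00599 in sham null males. For a bound, each sham array was set no lower than its dimmest signal well above background. The mean on the log2 scale was then 3.78-fold higher after castration, which is a bound for means and not for single arrays. This pair did not pass (adjusted p = 0.0956). In females both pairs of groups overlapped. Testosterone null females had 0.0960, 0.00946 and 0.0495, against 0.0220, 0.0205 and 0.0450 in sham null females. These were above background on 2 of 3 and 1 of 3 arrays, and the value of 0.0960 comes from an array with liver transcripts. Of the 4 pairs in the average, 1 went against its direction. The average over sexes passed (adjusted p = 0.0454), with no size given because a group lies at background (Gsta2 likewise, adjusted p = 0.246), and the call was lost when any of 21 of the 24 arrays was left out. The sham WT male array above background, at 0.0661, is the one with liver transcripts. Without both liver-containing arrays, castration in WT males passed for Gsta1 (adjusted p = 0.00673) and the androgen average passed for Gsta2 (adjusted p = 0.00154).

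**Figure D1:**
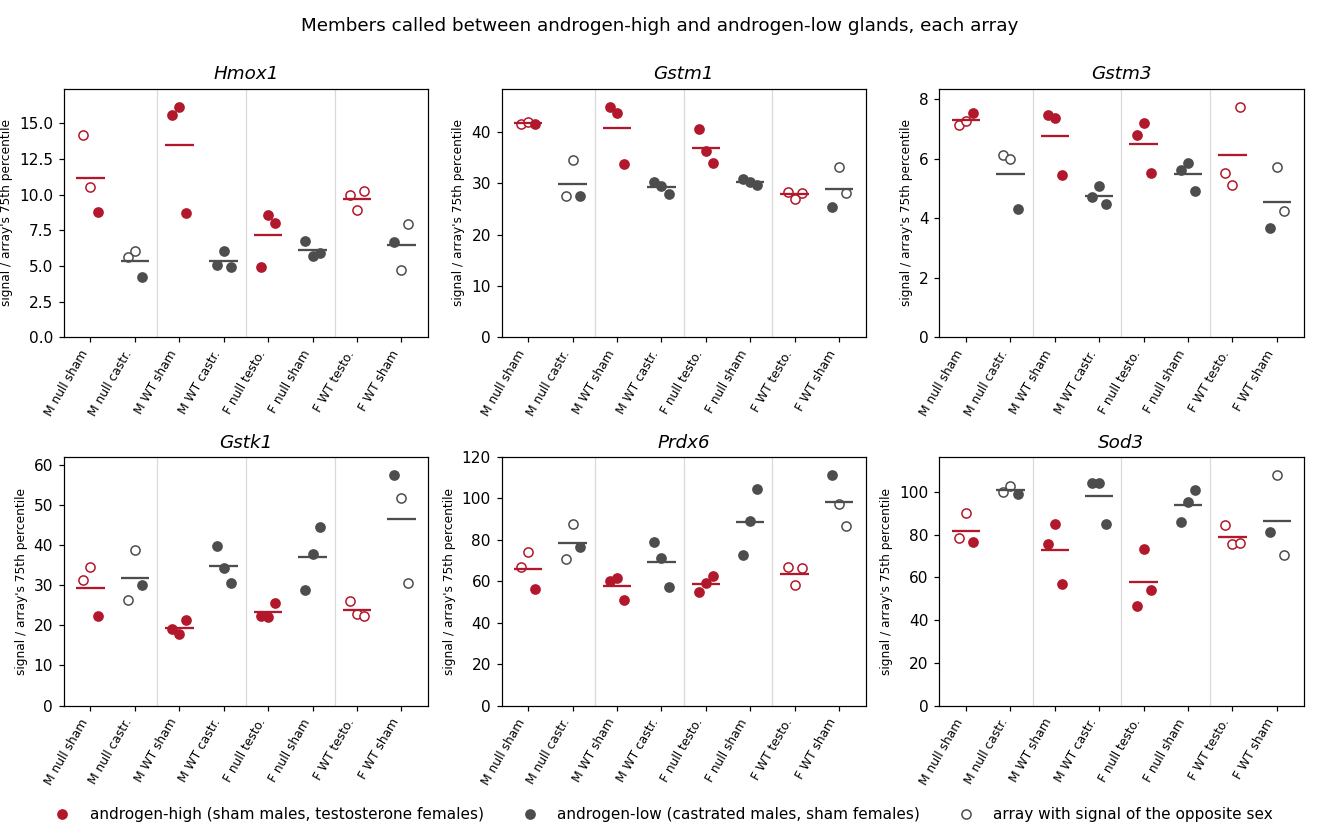
Relative signal (signal divided by the array's 75th percentile, y axis from 0) of 6 members on each of the 24 arrays, androgen-high groups in red to the left of their androgen-low groups in grey, with a bar at the mean of 3 arrays and open points for the 9 arrays with opposite-sex signal. Hmox1 reaches 16.1 in sham WT males and stays at or under 6.06 in both castrated groups, while Gstk1 peaks at 57.4 in sham WT females and lies at 17.8 to 21.3 in sham WT males.

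Among members that did not pass in this average, Gsta4, which handles lipid aldehydes, differed by 0.26 ± 0.07 (adjusted p = 0.0613). Gstz1, an enzyme of tyrosine breakdown, differed by 0.37 ± 0.11 (adjusted p = 0.0766), and Txnrd3, a thioredoxin-glutathione reductase, by -0.22 ± 0.07 (adjusted p = 0.101). Gpx4, which reduces lipid peroxides in membranes, differed by 0.26 ± 0.09 (adjusted p = 0.210), Gsto2 by 0.23 ± 0.10 (adjusted p = 0.298) and Prdx5 by 0.19 ± 0.09 (adjusted p = 0.390). Mgst1 and Mgst2, membrane-bound transferases, differed by -0.31 ± 0.13 and -0.33 ± 0.15 (adjusted p = 0.317 and 0.374). With the slide as a block, Gsta4, Gstz1, Gstm5 and Txnrd3 passed in this average, with the same differences and adjusted p = 0.0196, 0.0236, 0.0388 and 0.0418. The dimmer probe of Mgst1, looked at after the values were seen, was called on its own (-0.40 ± 0.10, adjusted p = 0.0406 over all probes). In castrated null males against sham null males, Gstm7 was 1.29, 1.30 and 0.782, against 2.56, 2.34 and 1.85 (-1.03 ± 0.25, adjusted p = 0.0613), and Gsta4 was 1.70, 1.91 and 1.496, against 2.58, 2.39 and 2.62 (-0.58 ± 0.14, adjusted p = 0.0609). Neither pair of groups overlaps, and neither passed in the main fit. Both passed under several alternatives. For Gstm7 the adjusted p then ran from 0.0217 (replicate block) to 0.0445 (filter on all 24 arrays). For Gsta4 it ran from 0.0202 (slide block) to 0.0479 (normexp with quantile normalization).

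No member was called for castration in null males, where 1.01% of all features were called. Testosterone called no member in WT females (0.0742% of all features) or in null females (0.210%). In WT females Prdx6-ps2 had the smallest p (-0.70 ± 0.17, adjusted p = 0.151), followed by Gstk1 (-0.92 ± 0.23, adjusted p = 0.167) and Prdx6 (-0.62 ± 0.16, adjusted p = 0.215). In null females Prdx6 (-0.58 ± 0.16, adjusted p = 0.285) and Gstk1 (-0.65 ± 0.23, adjusted p = 0.531) followed Sod3. These pairs share no arrays with each other.

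Markers of the X-zone moved with the same contrast. The summed level of Akr1c18 and Pik3c2g was at most 0.109 in sham WT males and 228 to 331 in castrated WT males. It was at most 0.119 in testosterone null females and 7.26 to 104 in sham null females, and 57.1 to 109 in testosterone WT females and 134 to 372 in sham WT females. In null males it was 91.6, 129 and 0.0831 in sham arrays 1, 2 and 3, against 161 to 248 after castration. Sham null male array 3, the one without X-zone signal and not among the 9 arrays, had 22.2 for Gstk1 and 56.1 for Prdx6, while arrays 1 and 2 had 31.4 and 34.4 for Gstk1 and 66.9 and 74.1 for Prdx6. Testosterone WT females, whose arrays are all among the 9, had X-zone signal and Gstk1 at 22.2 to 26.0. Testosterone null females, without X-zone signal, had Gstk1 at 22.2 to 25.5. In bulk RNA, fewer cells of a type and less RNA per cell cannot be told apart. Of 5 mast cell markers, Cma1 (-1.57) and Cpa3 (-0.68) also passed in the average, as did the steroidogenic factor Nr5a1 (-0.62), the zona glomerulosa markers Agtr1b (0.71) and Vsnl1 (1.20) and the capsule marker Gli1 (-0.70). Their lists did not all move together. Only 2 of the 4 zona glomerulosa markers lay above 0, and 6 of the 7 fibroblast and capsule markers lay above 0, unlike Gli1. Of the 10 steroidogenic markers 2 lay above 0, and no mast cell marker did. All 10 adipocyte markers lay above 0, with a median of 0.52, and none was called (limma, with 8 at an unadjusted p under 0.05). The part of any of these cells in the differences was not tested.

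Null against WT asks what loss of the channel does to the gland. The average over 4 pairs sets 12 null arrays against 12 WT arrays, and it called 4 of the 54 members, Gstt1, Gstt3 and Txnrd3 higher and Gstz1 lower, where 2.39% of all features were called, 1.20% higher and 1.20% lower. Before adjustment, p was under 0.05 for 12 members (22.2%), against 14.5% of all features. The median difference of the 54 was -0.020, and that of all features -0.025. Sex-linked genes moved in the same average, with Xist higher by 2.28 and Ddx3y lower (-3.80), as did the zona glomerulosa markers Agtr1b (-0.98) and Vsnl1 (-1.22) and the endothelial marker Tek (-0.37). Other markers of these lists went the other way, since 2 of the 4 zona glomerulosa markers and 2 of the 6 endothelial markers lay above 0. All 10 adipocyte markers lay below 0, with a median of -0.42, and Retn was called (-1.28). The part of these in the results was not tested. For females minus males at matched androgen state, Gstt1, Gstt3 and Gstz1 differed by 0.11, 0.12 and -0.092, and Txnrd3 by 0.20, none of them called. That contrast holds all 9 arrays with opposite-sex signal, 5 in females and 4 in males, so it cannot tell the part of sex in the genotype calls.

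Theta-class transferases, which handle small halogenated and sulphate-bearing molecules, lie in 1 cluster on chromosome 10. The probe of Gstt1 is at 75246560 to 75246619 and that of Gstt3 at 75236966 to 75237025 (mm9). Gstt1 was 12.52, 18.2 and 12.9 in castrated null males, against 9.79, 7.98 and 8.11 in castrated WT males. It was 18.0, 16.6 and 13.7 in sham null females, against 9.74, 8.53 and 9.09 in sham WT females, and 20.2, 16.2 and 13.5 in testosterone null females, against 12.1, 10.4 and 11.3 in testosterone WT females. In these 3 pairs every null array lay above every WT array. Sham males did not share this, with 13.0, 11.8 and 13.1 in null, against 11.8, 12.2 and 14.02 in WT. In that pair null arrays 1 and 2 carry opposite-sex signal, and null array 2 read 69.0% of the WT sham Kcnk3 level. The value of 14.02 comes from an array with liver transcripts.

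The Gstt1 average was 0.52 ± 0.08 (adjusted p = 0.00212), called in all 36 alternatives with values from 0.48 to 0.56, and 0.53, 0.69 and 0.29 within slides 1, 2 and 3. Of these alternatives 24 leave out 1 array each, and none leaves out the 9 arrays with opposite-sex signal. In sham females the Gstt1 difference was 0.81 ± 0.17 (adjusted p = 0.0348), the 1 member called there, where 0.487% of all features were called. That call ended when any array but sham null female array 3 was left out (adjusted p between 0.0647 and 0.174), and without the 9 arrays, which leaves 1 WT array whose spread is taken from the other groups, it was 0.72 (adjusted p = 0.338). In castrated males it was 0.74 ± 0.17 and just missed the threshold (adjusted p = 0.0513). No member was called in castrated males, where 0.683% of features were called. Gstt1 passed there under 9 alternatives (adjusted p between 0.0333 and 0.0488) and in none of the 6 fits without 1 array of the pair, and it was 0.59 (adjusted p = 1.000) without the 9 arrays. The castration response of null minus that of WT males was 0.74 ± 0.24 for Gstt1, 0.92 ± 0.29 for Gstt2 and -1.06 ± 0.38 for Mgst3, and none passed (adjusted p = 0.631, 0.626 and 0.804).

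Gstt3 was higher in null arrays with a smaller margin. It ran from 2.30 over a median of 3.501 to 5.53 in the 12 null arrays and from 2.19 over 2.66 to 3.23 in the 12 WT arrays, a difference of 0.38 ± 0.10 (adjusted p = 0.0429). All 4 pairs were above 0, from 0.27 to 0.53. The call was lost in 24 of 36 alternatives, among them without the liver-containing arrays (0.32, adjusted p = 0.0781) and without any of 19 single arrays. Gstt2 ran from 1.90 over 2.49 to 4.10 in null arrays and from 1.55 over 2.11 to 3.04 in WT arrays, and its difference of 0.37 ± 0.10 did not pass (adjusted p = 0.0731), but was 0.43 and passed with the slide as a block (adjusted p = 0.0345). Its differences were 0.74, 0.65 and 0.25 in castrated males, testosterone females and sham females and -0.18 in sham males. Gstt4 was above background on all 3 castrated null male arrays and no castrated WT male array. By the same bound on means as for Gsta1, it was 1.76-fold brighter in null, without passing (adjusted p = 0.463).

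Txnrd3 was 3.06, 3.51 and 3.52 in castrated null males, against 2.63, 2.26 and 2.86 in castrated WT males. Sham null males had 2.63, 2.35 and 2.73, against 2.21, 2.13 and 1.99 in sham WT males. Testosterone null females had 2.80, 3.33 and 3.43, against 2.61, 2.36 and 3.03 in testosterone WT females. Sham null females had 3.41, 3.23 and 3.94, against 2.73, 2.83 and 2.72 in sham WT females. Only the testosterone pair overlaps. The average was 0.32 ± 0.07 (adjusted p = 0.0164), and it was called in all 36 alternatives, with values from 0.30 to 0.34. The main reductases of the cytosol and mitochondria, Txnrd1 and Txnrd2, and the thioredoxins Txn1 and Txn2 were called nowhere.

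Gstz1 is the zeta-class enzyme that isomerizes maleylacetoacetate, a step of tyrosine breakdown. It was 16.9, 22.0 and 15.3 in castrated null males, against 25.1, 22.7 and 20.7 in castrated WT males, and 21.6, 24.3 and 24.7 in sham null males, against 34.8, 35.5 and 32.2 in sham WT males. Among females it was 28.6, 19.5 and 19.5 in testosterone null, against 22.4, 27.1 and 31.97 in testosterone WT, and 16.3, 21.3 and 11.5 in sham null, against 22.8, 27.6 and 30.2 in sham WT. Sham males and sham females separated completely, and the other pairs overlapped. The average was -0.48 ± 0.11 (adjusted p = 0.0219). The call held in 35 of 36 alternatives and was lost without slide 4 (-0.43, adjusted p = 0.0633).

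**Figure D2:**
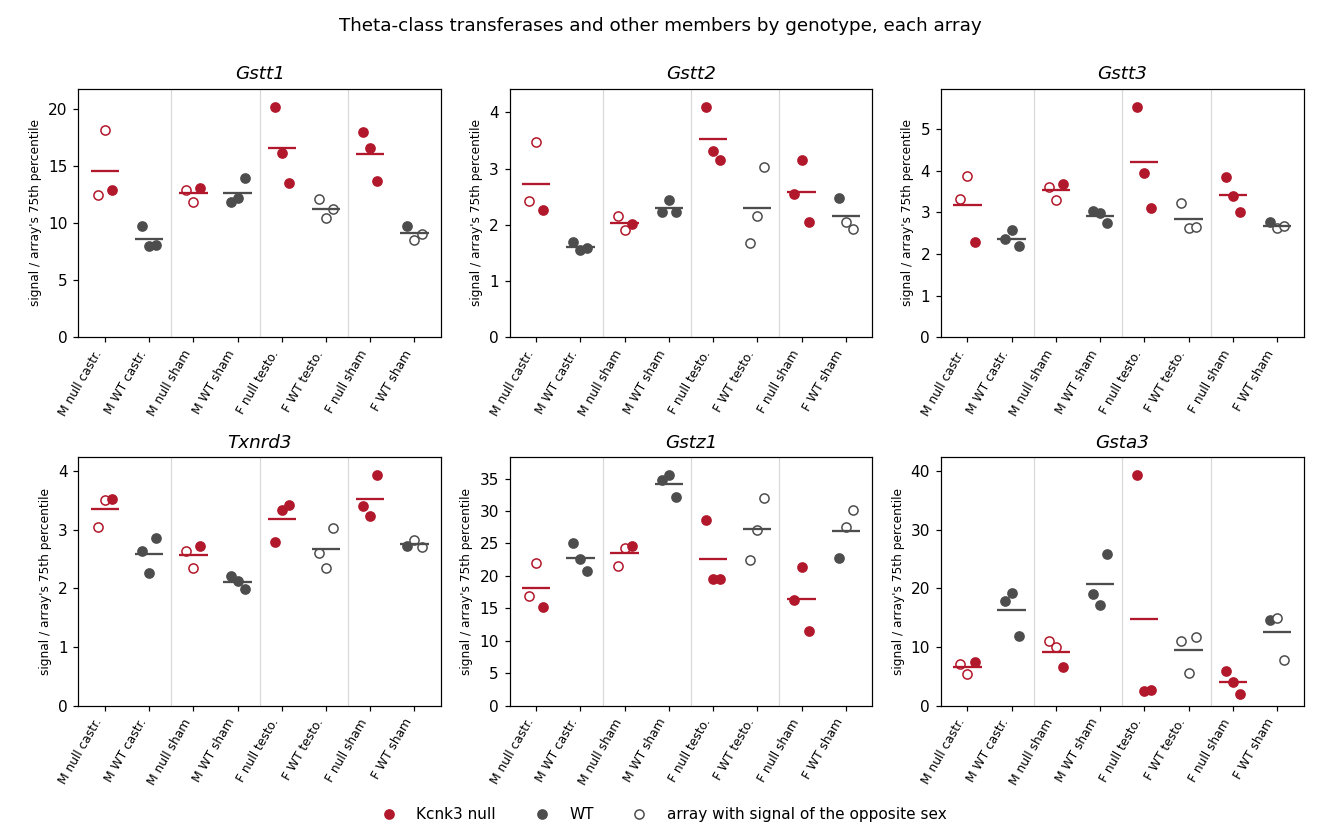
Relative signal (y axis from 0) of the theta-class genes Gstt1, Gstt2 and Gstt3 and of Txnrd3, Gstz1 and Gsta3 on each array, Kcnk3 null in red to the left of WT in grey within each sex and treatment, with a bar at the mean of 3 arrays and open points for the 9 arrays with opposite-sex signal. Gstt1 separates null from WT in every pair but sham males, and the Gsta3 value of 39.3 in testosterone null females is the array with the most liver transcript.

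Gsta3, an alpha-class transferase whose human namesake also isomerizes a steroid intermediate, had the greatest fitted difference without passing. It was 7.09, 5.40 and 7.35 in castrated null males, against 17.9, 19.3 and 11.95 in castrated WT males. Sham null males had 11.1, 9.997 and 6.57, against 19.1, 17.1 and 25.9 in sham WT males, and sham null females had 5.82, 3.95 and 2.04, against 14.6, 15.01 and 7.78 in sham WT females. In each of these pairs every null array lay below every WT array. Testosterone null females had 39.3, 2.53 and 2.61, against 11.1, 5.53 and 11.6 in testosterone WT females, and the first value comes from the array with a liver marker sum of 1461. The average was -1.17 ± 0.36 (adjusted p = 0.0991), and -1.46 ± 0.20 (adjusted p = 0.000905) without both liver-containing arrays. The second probe of Gsta3 gave -1.11 ± 0.39.

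Other members with small p in the genotype average did not pass. Nqo1, a quinone reductase, differed by 0.37 ± 0.12 (adjusted p = 0.105), Gpx2 by 0.47 ± 0.15 (adjusted p = 0.126) and Gstm2 by 0.28 ± 0.11 (adjusted p = 0.219), and Mgst1 by -0.37 ± 0.13 (adjusted p = 0.189). The dimmer Mgst1 probe passed on its own here too (-0.44 ± 0.10, adjusted p = 0.0264 over all probes). Mgst2 was 13.1, 11.2 and 5.35 in sham null females, against 30.6, 21.8 and 15.7 in sham WT females (-1.25 ± 0.30, adjusted p = 0.0787). In the same pair Gstz1 differed by -0.75 ± 0.21 (adjusted p = 0.159) and Nqo1 by 0.68 ± 0.23 (adjusted p = 0.258). In castrated males Mgst3 was 7.21, 10.96 and 7.00 in null, against 16.6, 14.3 and 11.99 in WT (-0.79 ± 0.27, adjusted p = 0.317), which passed with the slide as a block (adjusted p = 0.0157). Further down the order of p in the average, Mgst2 (-0.33), Hmox2 (0.19), Gstm1 (0.14), Prdx1 (-0.16), Gstm5 (0.13) and Txn2 (-0.17) had adjusted p between 0.314 and 0.404. No member was called in sham males or in testosterone females, each with 0.0355% of all features called. The smallest p in sham males belonged to Gstk1 (0.58 ± 0.23), Gstz1 (-0.54 ± 0.21) and Txnrd3 (0.28 ± 0.13), all at adjusted p = 0.999. In testosterone females they belonged to Gstt1 (0.54 ± 0.17, adjusted p = 0.315), Gstt2 (0.65 ± 0.21, adjusted p = 0.322) and Gstm1 (0.41 ± 0.14, adjusted p = 0.341). Neither difference of responses between genotypes called a member, at 0.0806% of features for castration and 0.0967% for testosterone, where Mgst2 (1.13 ± 0.43) and Sod3 (-0.60 ± 0.26) came next after Gclc.

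Female against male was compared in sham glands and at matched androgen state. In WT sham glands 4 members were called, where 1.98% of all features were. Prdx6-ps2 was 3.68, 3.91 and 3.48 in females, against 1.95, 2.09 and 1.68 in males (0.96 ± 0.17, adjusted p = 0.00416). Gstk1 was 57.4, 51.6 and 30.5 in females, against 19.03, 17.8 and 21.3 in males (1.22 ± 0.23, adjusted p = 0.00673). Prdx6 was 111, 97.5 and 86.7 in females, against 60.3, 61.6 and 50.8 in males (0.77 ± 0.16, adjusted p = 0.0170). Hmox1 was 6.66, 4.73 and 7.95 in females, against 15.6, 16.1 and 8.69 in males (-1.04 ± 0.26, adjusted p = 0.0456). The groups of these 4 do not overlap, but neither do those of 16 of the 54 members in all. The share over all features was not counted, so this adds no support to the calls. Gstm5 (-0.48 ± 0.13, adjusted p = 0.0700), Gstm1 (-0.49 ± 0.14, adjusted p = 0.0732) and Gstm3 (-0.59 ± 0.20, adjusted p = 0.164) did not pass. With the slide as a block, Gstm1 (-0.54, adjusted p = 0.0263) and Gstm3 (-0.75, adjusted p = 0.0251) did. These are the same sham WT arrays as in the androgen contrast, so the results are not independent of it.

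Female WT arrays 2 and 3 carry Y-linked signal. Without the 9 arrays 1 female WT array is left, whose spread is taken from the other groups. Gstk1 was then at 1.57 (adjusted p = 0.0197), and Prdx6-ps2 (0.95, adjusted p = 0.0884), Prdx6 (0.96, adjusted p = 0.0970) and Hmox1 (-0.96, adjusted p = 0.271) did not pass. Gstk1 and Prdx6-ps2 kept their calls when any single array was left out, Prdx6 in 3 of 6 cases and Hmox1 in 2 of 6. The X-zone markers summed to 134 to 372 in sham WT females, against at most 0.109 in sham WT males. In null sham glands no member was called (0.745% of all features). There Gstk1 was 28.9, 37.8 and 44.5 in females, against 31.4, 34.4 and 22.2 in males (0.34 ± 0.23, adjusted p = 0.721), and Gstm1, at 30.9, 30.2 and 29.7 in females against 41.6, 42.0 and 41.7 in males, had the smallest p (-0.46 ± 0.14, adjusted p = 0.150), then Gstm5 (-0.45 ± 0.13) and Txnrd3 (0.45 ± 0.13).

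At matched androgen state, females against males over both genotypes, no member was called, where 2.23% of all features were (limma, with 7 members at an unadjusted p under 0.05). Gstm5 came nearest (-0.24 ± 0.07, adjusted p = 0.0669), then Txnrd3 (0.20 ± 0.07, adjusted p = 0.156). Gstk1, Prdx6, Sod3 and Hmox1 differed by 0.14, 0.17, -0.17 and -0.16 in that contrast. Gstm1 (-0.18, adjusted p = 0.218), Gstt2 (0.27, adjusted p = 0.221), Prdx6-ps2 (0.21, adjusted p = 0.268), Mgst2 (-0.36, adjusted p = 0.295), Gsta3 (-0.74, adjusted p = 0.364), Gpx2 (0.26, adjusted p = 0.479) and Gss (0.15, adjusted p = 0.503) did not pass either, nor did Gstt4 (adjusted p = 0.174), which has no size because groups lie at background. Gsta3 passed once both liver-containing arrays were left out (-1.03, adjusted p = 0.0117).

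**Figure D3:**
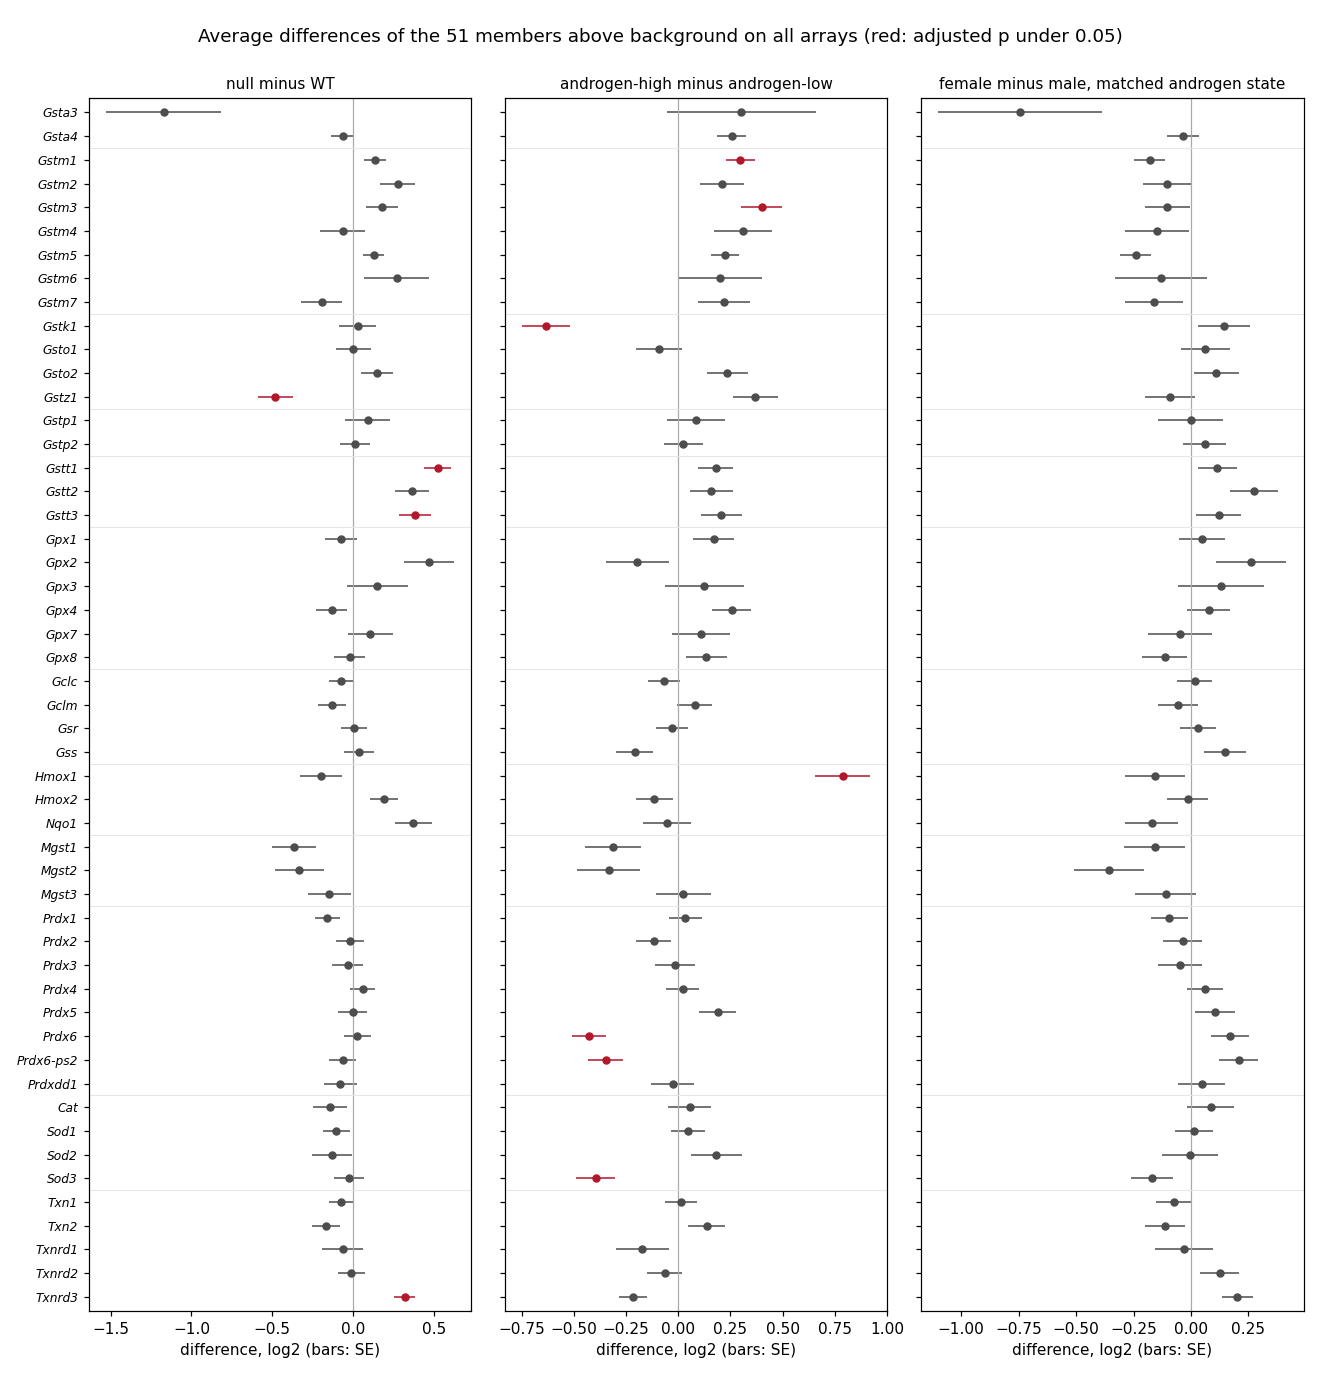
Average differences (x axes, log2, bars are 1 SE) of the 51 members above background on all arrays, for null minus WT, androgen-high minus androgen-low and female minus male at matched androgen state, each over 24 arrays, with called members in red and lines between families. Hmox1 at 0.79 and Gstk1 at -0.63 stand out for androgen state and Gstt1 at 0.52 for genotype, and no gene is red in the sex panel.

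**Figure D4:**
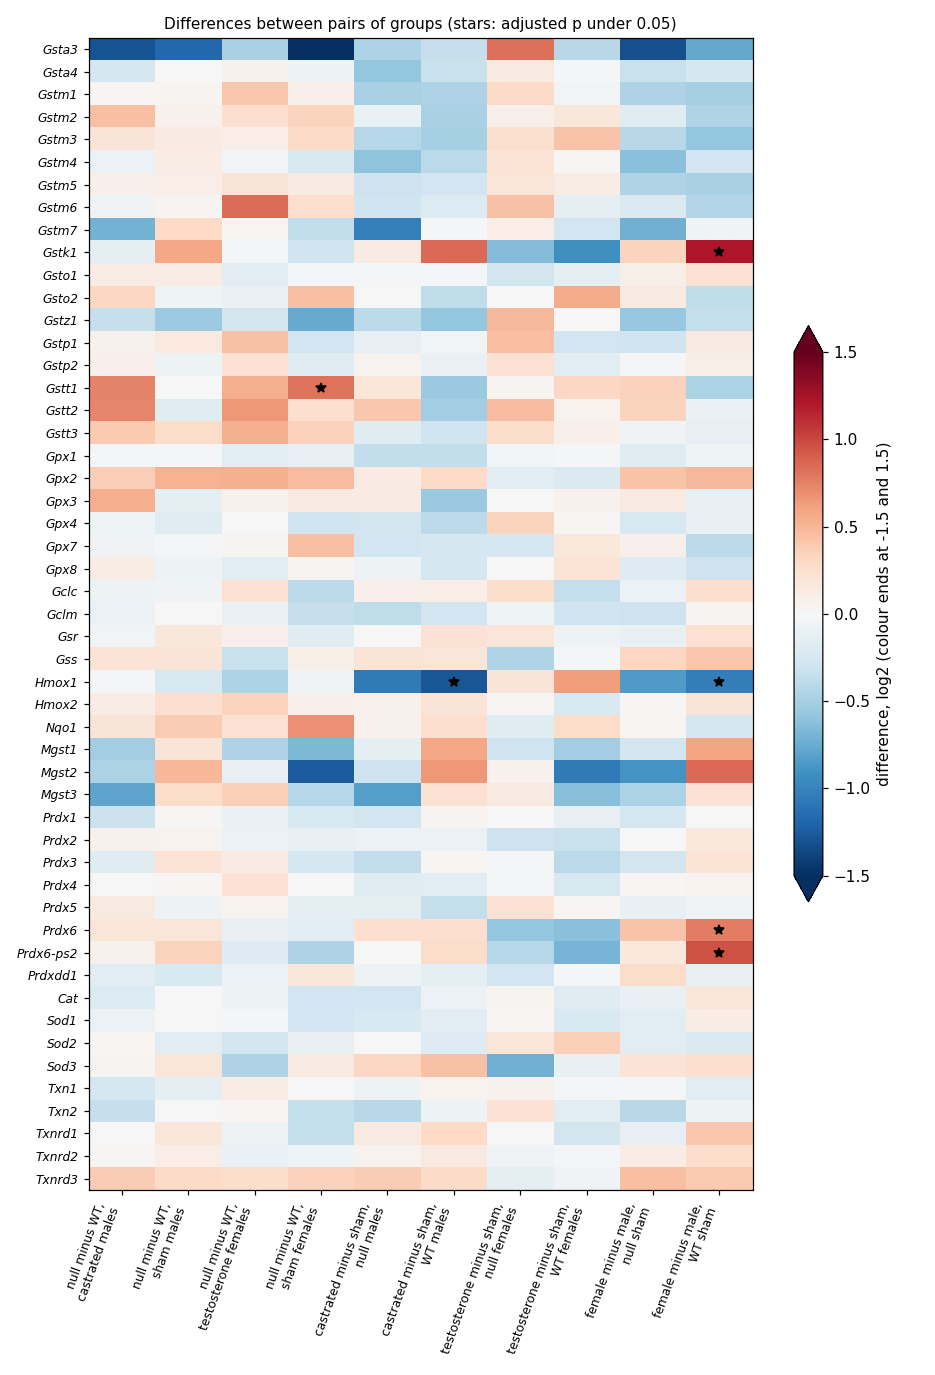
Difference of each of the 51 members (rows) in the 10 comparisons of 2 groups (columns), on the log2 scale with red for higher in the group named first and blue for lower, colours ending at -1.5 and 1.5, and stars on called genes. The stars are Gstt1 in sham females by genotype, Hmox1 for castration in WT males, and Hmox1, Gstk1, Prdx6 and Prdx6-ps2 for sex in WT sham glands.

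Most peroxide-removing enzymes were not called. Gpx1, the cytosolic glutathione peroxidase, ran from 53.3 to 109, Gpx4 from 66.7 to 118, Gpx3, which is secreted, from 8.98 to 26.3, and Gpx8 of the endoplasmic reticulum from 8.82 to 15.9. Gpx7 ran from 0.355 to 0.858 and Gpx2 from 0.0841 to 0.441. No glutathione peroxidase was called in any of the 15 comparisons. The peroxiredoxins Prdx1 (48.8 to 74.5), Prdx2 (34.6 to 66.7), Prdx3 of mitochondria (29.9 to 62.9), Prdx4 (2.33 to 3.78) and Prdx5 (17.6 to 30.9) were not called either. Of the peroxiredoxin names only Prdx6 and Prdx6-ps2 were. Prdxdd1 ran from 81.1 to 154 without a call.

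The rest of the members are given by their range over the 24 arrays. Sod1 ran from 136 to 213, Sod2 from 51.7 to 130 and Cat from 4.75 to 9.05. Txn1 ran from 30.4 to 50.03, Txn2 from 73.3 to 123.3, Txnrd1 from 4.77 to 12.52 and Txnrd2 from 20.7 to 33.1. None of these core enzymes was called. The pi-class Gstp1 ran from 11.3 to 35.1 and Gstp2 from 54.7 to 107.4, and both had their highest value on the testosterone null female array with liver transcripts. Gsto1, which reduces dehydroascorbate, ran from 13.5 to 27.8, Gsto2 from 0.441 to 0.951, Gsta2 from 0.00538 to 0.609, Gstm2 from 27.1 to 54.5, Gstm4 from 1.17 to 2.85, Gstm5 from 5.14 to 9.00 and Gstm6 from 0.559 to 2.88. The highest Gstm6 and Gsta2 values also come from that array, and the next highest were 1.46 and 0.368. Mgst1 ran from 46.8 to 176, Mgst2 from 5.35 to 30.6, Mgst3 from 5.99 to 17.9, Hmox2, the constitutive heme oxygenase, from 5.73 to 10.9, and Nqo1 from 0.116 to 0.289. The pi-class pair and the mu and theta clusters are closely related genes, so a probe may pick up a neighbour's transcript, which was not tested. Their brightest probes shared no run of 20 bases with a probe of another name on the array, which cannot tell whose transcripts they bind. The probe of Gsta1 shared such a run with probes of 2 other names. Those of Gsta2, Sod1 and Prdxdd1 did so with 1, 1 and 4 other names.

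A list of 65 partner genes (cystine transport, glutathione breakdown, NADPH supply, Nrf2 and its regulators) had 63 measured, of which 2 were higher and 1 lower in the null average, where 2.39% of all features were called. Nnt, the mitochondrial transhydrogenase that makes NADPH for glutathione reduction, ran from 15.6 over 19.3 to 45.9 in null arrays and from 7.30 over 13.5 to 16.3 in WT arrays (0.85 ± 0.14, adjusted p = 0.00200). Nnt is known to be partly deleted in the C57BL/6J substrain. The labels give the strain as C57BL/6 only, and the part of the substrain was not tested. Sesn1, a stress-responsive sestrin, was higher by 0.27 ± 0.06 (adjusted p = 0.0335). Me1, the cytosolic malic enzyme that supplies NADPH, was lower, with 114 over 145 to 220 in null arrays and 155 over 212 to 260 in WT arrays (-0.43 ± 0.09, adjusted p = 0.0211). In castrated males Ephx1, a microsomal epoxide hydrolase, was 108, 135 and 93.6 in null, against 62.8, 65.4 and 56.7 in WT (0.85 ± 0.18, adjusted p = 0.0313).

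For androgen state, 2 of the 63 partners passed and both were lower, a share near the 2.81% of all features called. Ggt6, a gamma-glutamyl transferase family member, ran from 0.161 over 0.250 to 1.17 in androgen-high arrays and from 0.459 over 0.939 to 1.71 in androgen-low arrays (-1.55 ± 0.34, adjusted p = 0.0154). Its androgen-high maximum, 1.17, is the testosterone null female array with liver transcripts. Chac1, which degrades glutathione inside the cell, ran from 0.7499 over 1.17 to 1.46 in androgen-high arrays and from 1.18 over 2.14 to 4.95 in androgen-low arrays (-0.87 ± 0.19, adjusted p = 0.0155). Neither Nfe2l2, which encodes Nrf2, nor its inhibitor Keap1 passed in any comparison. In the other 12 comparisons no partner was called.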

How the data were processed

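Adrenal RNA was labelled with Cy3 and hybridized to Agilent arrays of 1 mouse design, scanned with Feature Extraction 10.7.3.1 per the file headers. The deposited scanner values are spot intensities, background-subtracted by that program per the file headers. The deposited value table is on the log2 scale and was set against the scanner values here: it was quantile normalized between arrays without background subtraction, and served as an alternative only.

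Outlier spots were left out (160 to 283 an array, none saturated), spots of a probe were averaged, and each array's 75th percentile was subtracted on the log2 scale. Probes well above background on at least 3 of 24 arrays were kept (36822 of 55681), and the brightest stood for a gene. Gene names are those of the first 22 arrays' files, since the files of the fourth slide carry later names. limma 3.58.1 in R 4.3.3 fitted 8 group means with 16 residual degrees of freedom, and 15 contrasts were adjusted by Benjamini-Hochberg over 31018 features. The steps were tested on simulated data.

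Members, marker lists, the partner list and tests were chosen with earlier results of these data known. Named are all called members, the uncalled ones with the smallest p (up to 3 a comparison, 12 in the averages), and called partners. The precision is limited by the number of arrays. Replicate numbers are the labels' own. Alternatives covered normalization, filters, probes, blocks by slide and replicate, RNA integrity and arrays left out. RefSeq matched 53 members, all but Prdx6-ps2. One array name that did not pass the filter is not reported here.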

Additional observations from a re-analysis of the deposited data

How the results depend on the processing

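None of the 18 called results reversed. Counts of members called changed by over 1.5 times as follows, and the cause was not tested unless arrays or features were fewer. For null minus WT in castrated males, none became 1 under normexp with quantile normalization, the deposited table, the filter on all 24 arrays, the mean of probes, the replicate block, the RIN covariate, without the 2 liver-containing arrays and with 1 feature per genome region (an alternative chosen after seeing the data), and 2 under the slide block. In sham females 1 became 0 without a filter, without the 9 arrays and without slide 4, and 2 without the liver-containing arrays. For castration in WT males 1 became 2 under normexp, quantile and the deposited table, 3 without the liver-containing arrays, and 0 without a filter, with the mean of probes and without the 9 arrays. For castration in null males 0 became 3 under normexp and under the filter on all arrays, 1 under quantile, the mean of probes and 1 feature per region, 2 under the deposited table, the RIN covariate, without the liver-containing arrays and without slide 4, 4 under the replicate block and 5 under the slide block. For testosterone 0 became 2 under normexp and the deposited table and 1 under quantile in WT females, and 1 under normexp and the deposited table in null females. For sex in WT sham glands 4 became 7 under normexp, the deposited table and the slide block, and 2 without the 9 arrays. For androgen state 8 became 3 without a filter. For sex at matched androgen state 0 became 1 under the replicate block and without the liver-containing arrays. Leaving out 1 array gave 0 to 1 in sham females by genotype, 0 to 2 for castration in WT males, 0 to 1 for testosterone in WT females, 2 to 5 for sex in WT sham glands, 3 to 5 in the genotype average, 5 to 9 in the androgen average and 0 to 2 for sex at matched androgen state. Deviations of arrays with the same replicate number correlated by -0.357 to 0.685 (mean 0.23 over 84 pairs), and no label ties a number to an animal or a day. Numbers 1 and 2 coincide with slides 1 and 2, and number 3 with slides 3 and 4, so the replicate block and the slide block overlap. Under the replicate block, Gsta3 (adjusted p = 0.0498) and Mgst1 (0.0428) passed by genotype, Gsta4 by androgen state (0.0430) and Gstm5 by sex at matched androgen state (0.0387). The averages cannot be refitted without the 9 arrays, which include all testosterone WT females.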
